A study of Rattus norvegicus with 15 samples.

Results

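The cytochrome P450 (Cyp) genes were taken as every probe whose only gene symbol in the platform annotation began with Cyp followed by a digit. That rule gave 38 probes for 38 genes, out of 3757 probes covering 3400 genes. They comprised 3 genes of family 1, 15 of family 2, 3 of family 3, 8 of family 4 and 9 of the steroid and bile acid families (Cyp7a1, Cyp7b1, Cyp8b1, Cyp11a1, Cyp17a1, Cyp21a1, Cyp27a1, Cyp27b1 and Cyp51). No probe of Cyp19 or Cyp24 was among them.

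Total RNA from liver of male Fischer344 rats was measured on 15 arrays, 5 per group (1 control is labelled Fischer). The carcinoma samples were hepatocellular carcinomas, and the noncancerous samples were the cirrhotic liver around such tumours, both from rats given an L-amino acid-defined, choline-deficient diet over 70 weeks. The control samples were normal liver from rats given the basal diet for the same 70 weeks. The labels leave it unsaid whether each sample is from its own animal and whether a tumour and a cirrhotic sample share one, so p-values below reflect the spread among the samples, which may be technical.

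P450 enzymes are haem proteins that insert oxygen into small molecules, taking electrons from P450 reductase and, in mitochondria, from adrenodoxin. Families 1 to 3 chiefly clear drugs, carcinogens and steroids, family 4 hydroxylates fatty acids and eicosanoids, and the remaining families make or break down bile acids, steroid hormones, vitamin D and sterols. In the liver they are mainly hepatocyte enzymes, and in rats several of them, Cyp2c11 and Cyp3a2 among them, are known for higher levels in males under the male pattern of growth hormone release.

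Each value below is a log2 ratio of a probe to its own median over the 15 arrays, after quantile normalization, so 0 is near the middle of that gene's own range. Levels cannot be compared between genes, and the presence of liver markers cannot be checked from ratios. In bulk tissue, fewer cells of a type and less RNA per cell cannot be told apart. Probe sequences were not used here, so signal from near-identical paralogs within the 2a, 2c, 3a and 4a subfamilies cannot be separated. Of the 570 P450 values, 12 in 7 probes stood at the lowest deposited ratio, 0.01, and give only an upper bound. Noncancerous 1 held 5 of them, control 2 held 4, carcinoma 1 held 2 and control 1 held 1.

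No probe of the array, P450 or other, passed an adjusted p of 0.05 in any comparison (limma, Benjamini-Hochberg over all 3757 probes). The smallest adjusted p over all probes was 0.224 between carcinoma and noncancerous liver, 0.459 between carcinoma and control liver and 0.307 between noncancerous and control liver. At an unadjusted p under 0.05, 261 probes were higher and 236 lower in carcinoma than in noncancerous liver, 137 higher and 141 lower in carcinoma than in control liver, and 151 higher and 211 lower in noncancerous than in control liver. P450 counts below are at that unadjusted level and are read beside the share of all probes that met it. The 95% interval of a P450 difference extended by between 0.90 and 1.90 to either side, depending on the gene (median 1.29).

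The 38 P450 genes as a group lay lowest in the carcinomas. Their median log2 ratio was between -0.49 and 0.06 in the 5 carcinomas (mean -0.22 ± 0.25, SD, n = 5), between -0.01 and 0.77 in the 5 noncancerous samples (0.32 ± 0.31) and between -0.28 and 0.35 in the 5 controls (-0.01 ± 0.28). In carcinomas 3 and 4, 32 of the 38 genes were below 0, and in noncancerous 5, 32 were above 0. In each of these samples 50.6% of all probes were below 0. The ranges of the groups overlapped. By group mean, 19 genes were ordered carcinoma, control, noncancerous from lowest to highest, and 5 more had carcinoma lowest and control highest. The opposite extreme, carcinoma highest, held for Cyp4a8, Cyp11a1, Cyp21a1, Cyp2a2, Cyp2d4 and Cyp4a3. These orders were not counted over all probes.

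**Figure D1:**
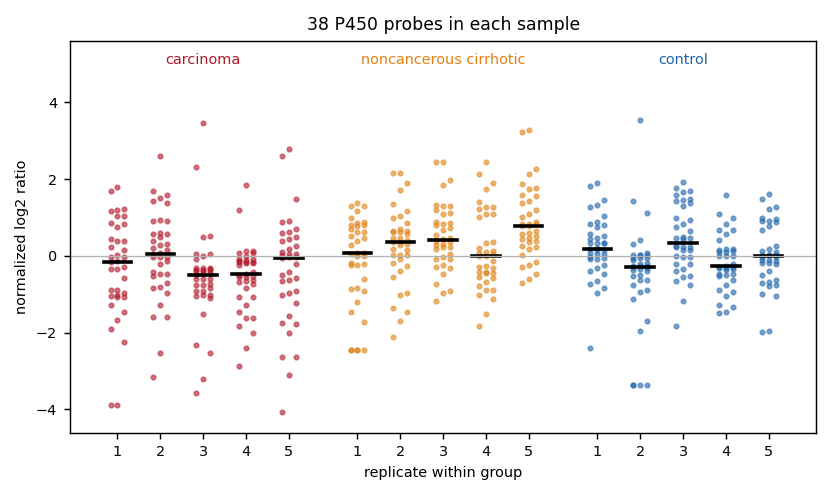
Log2 ratio of each of the 38 P450 genes (points) in each of the 15 samples, with the median over the genes of a sample as a bar, carcinoma at the left, noncancerous next and control at the right. The medians run from -0.49 to 0.06 in carcinomas, from -0.01 to 0.77 in noncancerous liver and from -0.28 to 0.35 in controls.

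**Figure D2:**
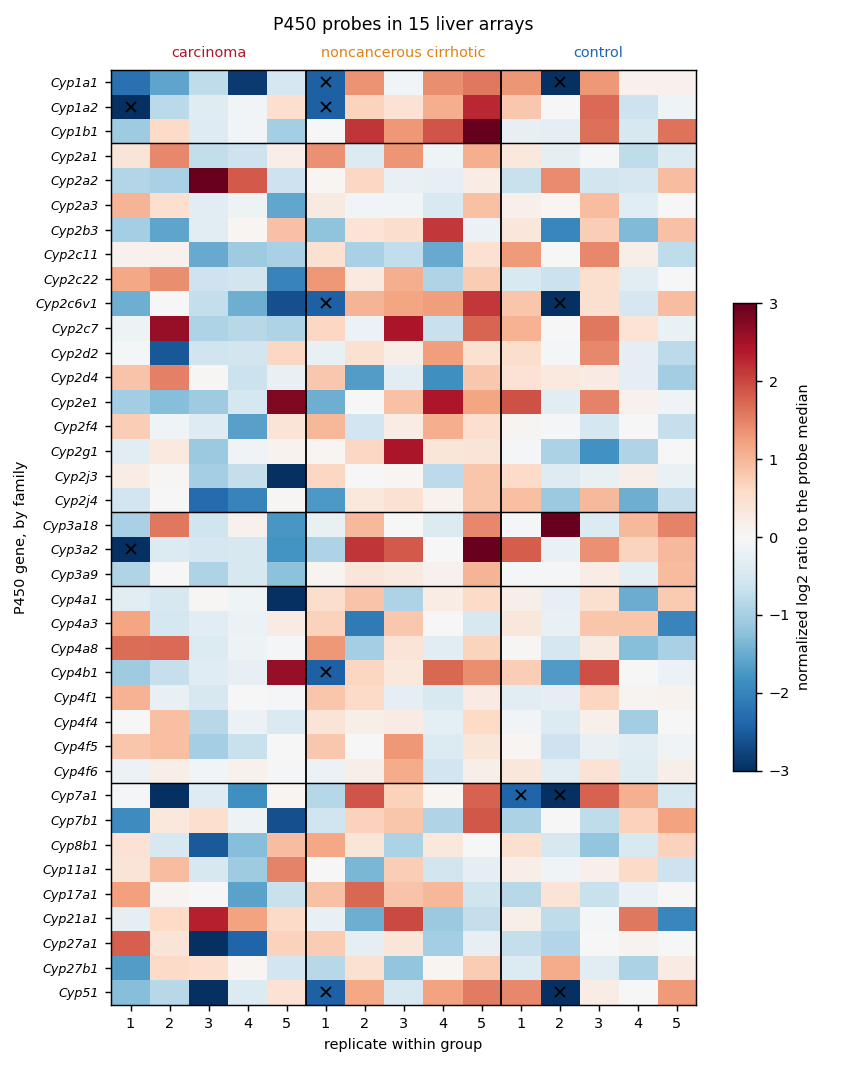
Heat map of the 38 P450 genes (grouped by family) by the 15 samples, with colour for the log2 ratio to the gene's own median, capped at 3 either side of 0. Crosses mark the 12 values at the lowest deposited ratio, 5 of them in noncancerous 1 and 4 in control 2.

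The numbering of the probes on the array bears on every difference given here. The running median of all probes, taken over each probe and 50 on either side by number, departs from 0, and 30 of the 38 P450 probes are numbered below 1400. At the P450 probes the median of this local difference was -0.47 for carcinoma minus noncancerous, 0.08 for carcinoma minus control and 0.52 for noncancerous minus control. What the numbering stands for was not tested. Many of the differences below are therefore given also with the running median removed from every array. Where no such value stands beside a difference, the local shift is still in it.

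**Figure D3:**
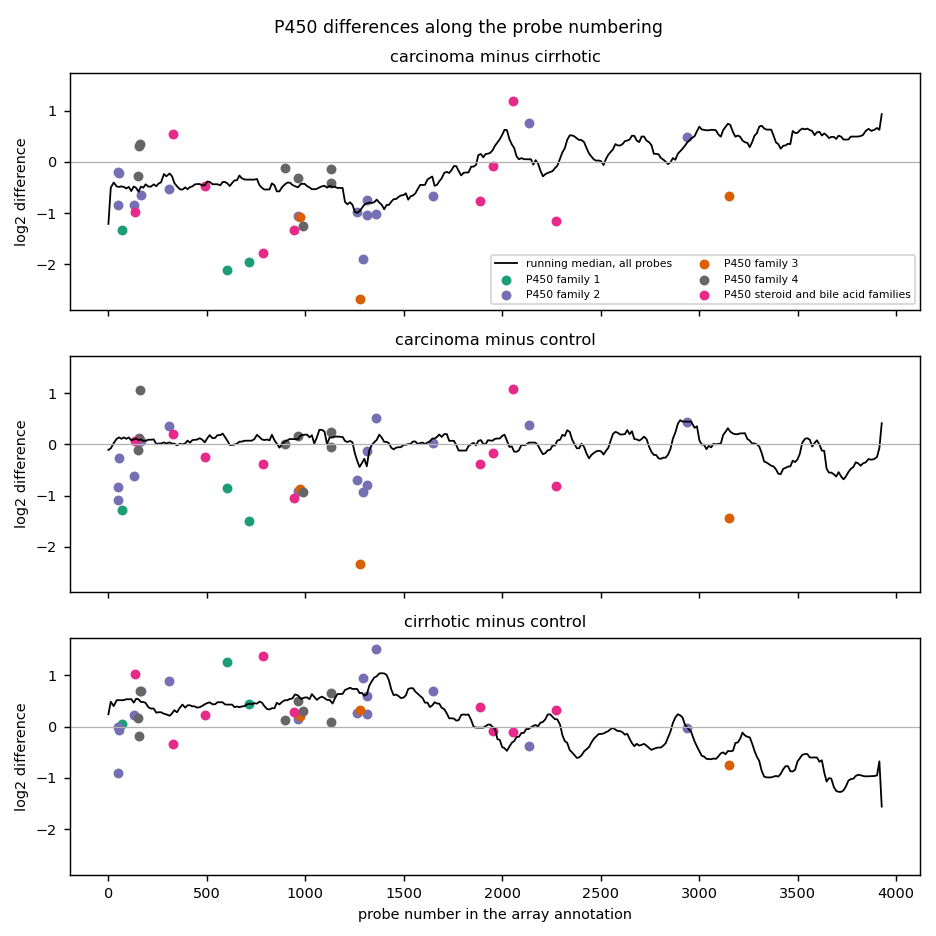
Log2 difference against probe number for the 3 comparisons, with P450 genes as points and the running median of all probes (50 on either side) as a line. In noncancerous minus control liver the line lies above 0 where most P450 probes are numbered (median 0.52 at these probes).

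The comparison of carcinoma with the surrounding noncancerous liver asks what differs between a tumour and the cirrhotic tissue around such tumours. Of the 38 genes, 32 had lower means in carcinoma, and the median difference was -0.70, beside 50.7% of all probes below 0 and a median of -0.02. At an unadjusted p under 0.05, 5 genes were lower and 0 higher, where 6.28% of all probes were lower and 6.95% higher. These were Cyp3a2, Cyp1b1, Cyp3a9, Cyp2c6v1 and Cyp1a1. With the running median removed, 24 of 38 were lower, the median was -0.31 and Cyp3a2 and Cyp1b1 were left at that level, beside 4.26% of all probes lower.

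**Figure D4:**
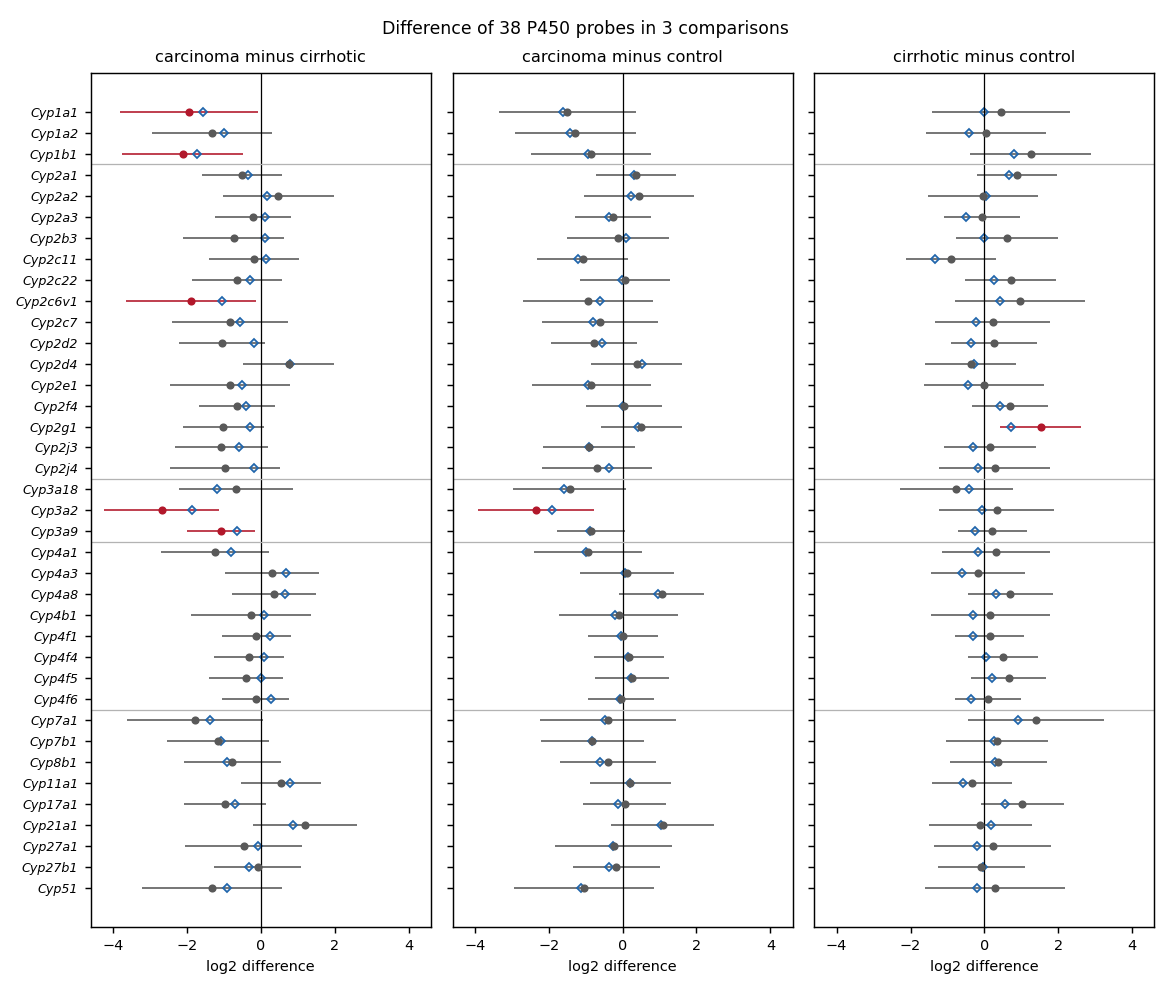
Log2 differences with 95% intervals for the 38 genes in the 3 comparisons (limma, 5 samples per group), red where the unadjusted p is under 0.05, with diamonds for the difference after removal of the running median. Cyp3a2 is lowest in both comparisons of carcinoma (-2.68 against noncancerous and -2.34 against control liver).

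Family 3 holds the main steroid and drug oxidases of the liver, and all 3 measured genes had lower means in carcinoma than in either other group. Cyp3a2, a testosterone hydroxylase higher in male rats, gave -3.88, -0.42, -0.51, -0.48 and -1.79 in carcinomas 1 to 5. It gave -0.93, 2.14, 1.84, -0.01 and 3.27 in noncancerous samples 1 to 5, and 1.82, -0.19, 1.37, 0.67 and 0.98 in controls 1 to 5. All 5 carcinomas lay below all 5 controls, which only 0.825% of all probes did, while noncancerous 1 lay within the range of the carcinomas. The value of carcinoma 1 is a bound. The difference was -2.68 (95% interval -4.23 to -1.12), or 6.39-fold lower, against noncancerous liver (limma adjusted p = 0.224), and -2.34 (-3.90 to -0.79), or 5.08-fold lower, against control liver (adjusted p = 0.489). Without carcinoma 1 the differences were -2.01 and -1.69, and with the running median removed they were -1.86 and -1.92. Raising all low ratios to the 25th percentile made the control difference -1.47, no longer at an unadjusted p under 0.05. Noncancerous and control liver differed in Cyp3a2 by 0.33 (-1.22 to 1.89).

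Cyp3a9, known for higher levels in female than in male rat liver, gave -0.90, -0.02, -0.92, -0.49 and -1.23 in carcinomas, 0.07, 0.36, 0.27, 0.13 and 1.02 in noncancerous samples and -0.07, -0.04, 0.23, -0.29 and 0.95 in controls. Each carcinoma lay below each noncancerous sample, the only P450 gene of which this held (1.46% of all probes), and carcinoma 2 lay within the controls. The difference was -1.08 (-2.01 to -0.16, adjusted p = 0.31) against noncancerous and -0.86 (-1.79 to 0.06, adjusted p = 0.673) against control liver. With the running median removed these were -0.64 and -0.89, and the carcinomas then overlapped the noncancerous samples. Cyp3a18, a further steroid hydroxylase of rat liver, averaged -0.32 ± 1.27 in carcinoma, 0.35 ± 0.81 in noncancerous and 1.11 ± 1.56 in control liver (SD, n = 5 each), and all groups overlapped. Its highest value, 3.55, was that of control 2.

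The sequences before the start of the family 3 genes and of the male-type Cyp2c11 are shown because Cyp3a2, Cyp3a9 and Cyp2c11 were the P450 genes at an unadjusted p under 0.05 between carcinoma and control liver before or after removal of the running median. Capitals mark AGGTCA, the half-site of many nuclear receptors, and TTGCNNAA, a core bound by C/EBP factors, on either strand. The 250 bases before the transcript start, from RefSeq's GRCr8 assembly, are chr12:14343858-14344107 (minus strand) for Cyp3a2, chr12:21960161-21960410 (minus) for Cyp3a9, chr12:13994062-13994311 (plus) for Cyp3a18 and chr1:246174966-246175215 (plus) for Cyp2c11.
Cyp3a2: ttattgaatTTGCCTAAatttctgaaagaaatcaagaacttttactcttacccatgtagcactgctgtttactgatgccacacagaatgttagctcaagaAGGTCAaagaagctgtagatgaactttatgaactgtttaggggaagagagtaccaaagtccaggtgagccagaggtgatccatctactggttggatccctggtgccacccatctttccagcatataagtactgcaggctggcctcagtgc
Cyp3a9: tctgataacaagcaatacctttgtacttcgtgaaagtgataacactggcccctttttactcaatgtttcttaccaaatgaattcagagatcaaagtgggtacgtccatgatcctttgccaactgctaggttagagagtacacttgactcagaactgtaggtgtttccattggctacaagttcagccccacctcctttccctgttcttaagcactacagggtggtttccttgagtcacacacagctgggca
Cyp3a18: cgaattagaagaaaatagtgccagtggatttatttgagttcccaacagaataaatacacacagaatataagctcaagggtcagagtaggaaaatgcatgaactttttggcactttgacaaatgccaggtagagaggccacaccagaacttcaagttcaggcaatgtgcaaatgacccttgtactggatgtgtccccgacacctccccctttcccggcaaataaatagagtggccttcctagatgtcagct
Cyp2c11: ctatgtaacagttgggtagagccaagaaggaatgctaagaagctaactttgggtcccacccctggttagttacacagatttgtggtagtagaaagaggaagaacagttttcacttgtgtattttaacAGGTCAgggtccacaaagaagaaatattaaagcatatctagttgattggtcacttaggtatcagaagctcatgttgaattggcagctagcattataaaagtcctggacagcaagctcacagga
Cyp3a2 holds AGGTCA starting 150 bases and TTGCNNAA starting 241 bases before the start, Cyp2c11 holds AGGTCA at 123 bases, and these letters are not in the windows of Cyp3a9 and Cyp3a18. Of the 38 genes, 30 had a sequence in the table. AGGTCA was in 10 of these 30 (33.3%) and in 14.1% of 33469 such windows of all genes, and TTGCNNAA was in 33.3% and 9.22%. GTTAAT, a half-site of HNF1, was in 10.0% and 6.45%, TTCNNNGAA, the STAT form, in 6.67% and 7.67%, and GCGTG, the core bound by the aryl hydrocarbon receptor, in 16.7% and 25.9%. These matches describe letters only.

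Family 1 enzymes are induced through the aryl hydrocarbon receptor and activate polycyclic and aryl amine carcinogens. All 3 had lower means in carcinoma than in either other group, with a median difference of -1.95 against noncancerous and -1.28 against control liver. Cyp1a1 gave -2.23, -1.59, -0.76, -2.86 and -0.50 in carcinomas, against -2.46 (a bound), 1.35, -0.09, 1.40 and 1.58 in noncancerous liver. The controls gave 1.32, -3.36 (a bound), 1.31, 0.12 and 0.14. The groups overlapped, as the bound of noncancerous 1 lay within the carcinoma range and that of control 2 below it. The other noncancerous and control samples lay above every carcinoma, a split seen only with the bounds set aside and not counted over all probes. With the bounds in, Cyp1a1 differed by -1.95 (-3.81 to -0.08, adjusted p = 0.357) and -1.50 (-3.36 to 0.37, adjusted p = 0.723). With the values at the limit left out, which takes away the lowest value of each of those groups, the differences were -2.65 and -2.31. On the values as deposited, where the bounds lie further out, they were -0.80 and -0.68, with arrays scaled to the same median -0.79 and -0.66, and with the running median removed -1.58 and -1.60. As deposited, with the median scaling and with the running median removed, neither difference was at an unadjusted p under 0.05. With the values at the limit left out both were, and with the bounds in only that against noncancerous liver was.

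Cyp1a2, which oxidises caffeine and aryl amines, gave -3.88 (a bound), -0.81, -0.36, -0.07 and 0.50 in carcinomas. It gave -2.46 (a bound), 0.66, 0.44, 1.08 and 2.26 in noncancerous liver, and 0.80, 0.02, 1.69, -0.62 and -0.13 in controls. The groups overlapped, and the differences of -1.32 and -1.28 against noncancerous and control liver had intervals that included 0. Without the bounds they were -1.30 and -0.54, and without carcinoma 1 alone -0.56 and -0.52. Cyp1b1, which is expressed in many tissues and hydroxylates oestrogens, gave -1.07, 0.57, -0.38, -0.08 and -1.02 in carcinomas, -0.01, 2.15, 1.31, 1.89 and 3.22 in noncancerous liver and -0.24, -0.27, 1.65, -0.48 and 1.62 in controls. Its carcinoma minus noncancerous difference was -2.11 (-3.74 to -0.47, adjusted p = 0.266), and noncancerous 1 was the only one of its group within the carcinoma range. With the running median removed this difference was -1.74. The carcinoma minus control difference was -0.85 (-2.49 to 0.78), with overlap.

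**Figure D5:**
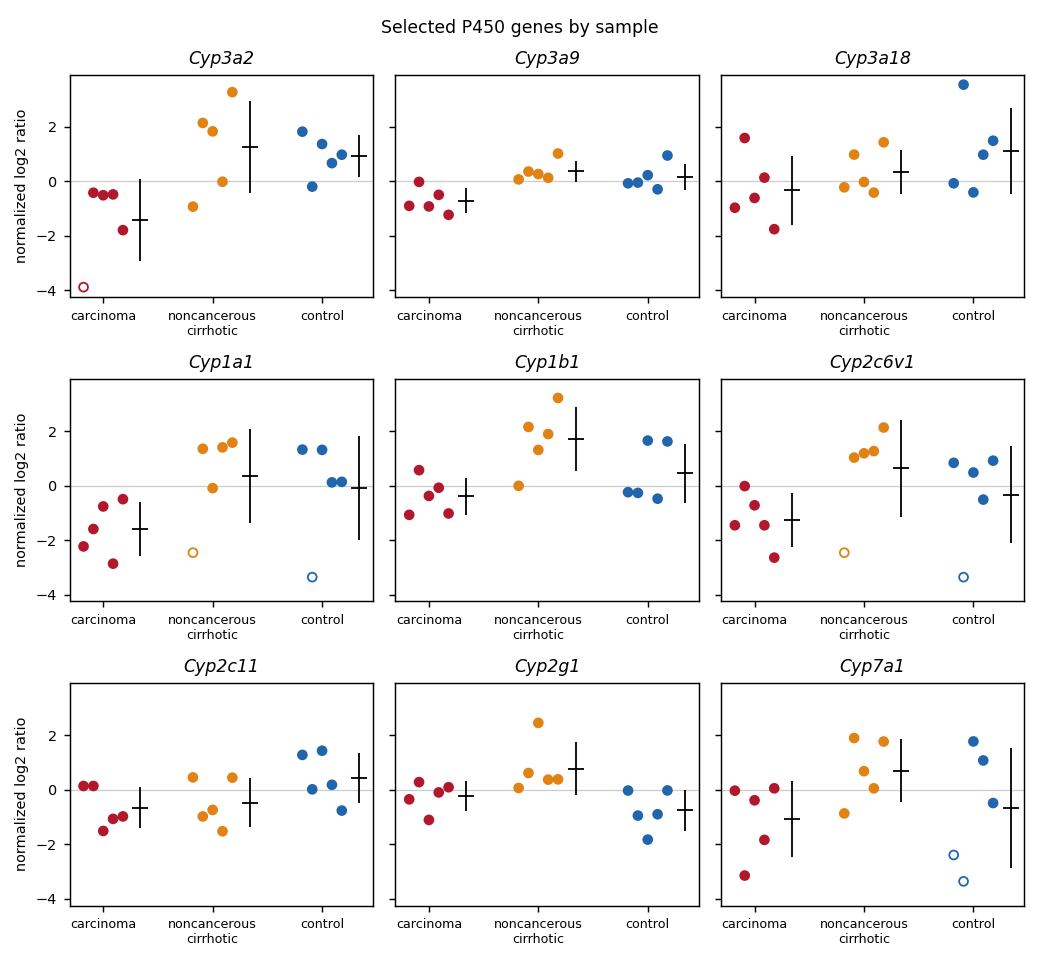
Log2 ratio per sample of 9 P450 genes, with group mean ± SD (n = 5), carcinoma at the left, noncancerous in the middle and control at the right of each panel, and open points for values at the lowest deposited ratio. For Cyp3a2 all carcinomas lie below all controls, and for Cyp3a9 all carcinomas lie below all noncancerous samples.

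Family 2 was the largest, with 13 of 15 genes lower in carcinoma than in noncancerous liver (median -0.73) and 9 of 15 lower than in control liver (median -0.26). After removal of the running median these were 10 of 15 (median -0.29) and 9 of 15 (median -0.36). Cyp2c6v1, a drug oxidase inducible by phenobarbital, gave -1.46, -0.02, -0.72, -1.46 and -2.64 in carcinomas. It gave -2.46 (a bound), 1.03, 1.19, 1.26 and 2.13 in noncancerous liver and 0.83, -3.36 (a bound), 0.48, -0.51 and 0.91 in controls. Each carcinoma lay below the 4 noncancerous samples that were not at the limit, while the bound of noncancerous 1 lay within the carcinoma range. Such a split was not counted over all probes. The difference was -1.89 (-3.65 to -0.12, adjusted p = 0.351) against noncancerous and -0.93 (-2.69 to 0.83) against control liver. Leaving out the bounds, which takes away the lowest value of each of those groups, gave -2.66 and -1.69. As deposited these were -0.84 and -0.28, with arrays scaled to the same median -0.82 and -0.25 and with the running median removed -1.04 and -0.62, none at an unadjusted p under 0.05. Cyp2c7, its neighbour on the chromosome, averaged -0.04 ± 1.52, 0.79 ± 1.30 and 0.57 ± 0.74 in carcinoma, noncancerous and control liver.

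Cyp2c11, the male-specific testosterone hydroxylase of rat liver, gave 0.14, 0.14, -1.51, -1.07 and -0.98 in carcinomas, 0.46, -0.98, -0.74, -1.52 and 0.45 in noncancerous liver and 1.28, 0.02, 1.43, 0.18 and -0.76 in controls. Carcinoma and noncancerous liver both had lower means than control liver, with overlap. The difference from control was -1.09 (-2.30 to 0.13, adjusted p = 0.714) in carcinoma and -0.90 (-2.12 to 0.32, adjusted p = 0.608) in noncancerous liver, comparisons that share the same 5 controls. With the running median removed they were -1.20 and -1.34, both at an unadjusted p under 0.05. Among the other family 2 genes with sex-dependent levels in rats, Cyp2a2, higher in males, ranged from -0.98 to 3.47 in carcinoma, from -0.26 to 0.63 in noncancerous and from -0.66 to 1.42 in control liver. Carcinomas 3 and 4 held its highest values, 3.47 and 1.85.

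Cyp2e1, which oxidises ethanol and nitrosamines, gave -1.04, -1.27, -1.06, -0.53 and 2.78 in carcinomas. Noncancerous liver gave -1.46, 0.02, 0.88, 2.44 and 1.19, and controls gave 1.90, -0.33, 1.48, 0.14 and -0.10. Of the carcinomas, 4 lay below all 5 controls, and carcinoma 5 held the highest Cyp2e1 value of the 15 samples. The carcinoma difference was -0.84 against both noncancerous and control liver with all samples, and -1.56 and -1.57 without carcinoma 5. It was -0.39 against noncancerous liver without noncancerous 4, and -0.50 against control liver without control 1. With all samples and the running median removed it was -0.50 against noncancerous and -0.95 against control liver.

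Cyp2g1, a P450 known from the olfactory mucosa, was the only P450 gene at an unadjusted p under 0.05 between noncancerous and control liver. It gave -0.35, 0.28, -1.10, -0.10 and 0.09 in carcinomas, 0.07, 0.62, 2.46, 0.37 and 0.38 in noncancerous liver and -0.03, -0.95, -1.83, -0.90 and -0.02 in controls. The noncancerous samples all lay above the controls, which held for 0.665% of all probes, with 0.07 and -0.02 as the nearest values. The difference was 1.52 (0.43 to 2.62, adjusted p = 0.378). It was 1.14 without noncancerous 3 and 0.71 with the running median removed, when the groups overlapped. The other members of its chromosomal row, Cyp2a3, Cyp2a1, Cyp2a2 and Cyp2f4, differed between noncancerous and control liver by -0.06, 0.88, -0.04 and 0.69, and all their intervals included 0.

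Of the remaining family 2 genes, Cyp2d2, the debrisoquine hydroxylase, had a carcinoma minus noncancerous difference of -1.04 (-2.21 to 0.12), and the epoxygenases Cyp2j3 and Cyp2j4 had -1.06 and -0.97. These were -0.19, -0.60 and -0.18 with the running median removed. Cyp2b3, Cyp2c22, Cyp2f4, Cyp2a1 and Cyp2a3 differed by between -0.73 and -0.21, and by between -0.40 and 0.12 with the running median removed. Cyp2d4 stood on the other side at 0.75 (-0.47 to 1.98). All of these intervals included 0.

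Family 4, the fatty acid hydroxylases, had differences nearer 0 than families 1 and 3. The family median was -0.21 between carcinoma and noncancerous liver (6 of 8 lower), but 0.18 with the running median removed, and 0.07 between carcinoma and control liver. Cyp4a1, a classic target of the peroxisome proliferator receptor, gave -0.34, -0.48, 0.04, -0.13 and -4.07 in carcinomas, 0.52, 0.86, -0.92, 0.21 and 0.57 in noncancerous liver and 0.16, -0.25, 0.48, -1.50 and 0.78 in controls. Its differences of -1.24 and -0.93 against noncancerous and control liver were -0.45 and -0.15 without carcinoma 5. Cyp4a3, its neighbour and paralog, gave 1.19, -0.52, -0.32, -0.18 and 0.25 in carcinomas, 0.70, -2.12, 0.81, -0.01 and -0.47 in noncancerous liver and 0.34, -0.22, 0.82, 0.83 and -1.99 in controls, with overlap everywhere. The 4 Cyp4f genes, which inactivate leukotrienes and related eicosanoids, differed by between -0.41 and -0.12 from noncancerous liver and between -0.05 and 0.25 from control liver. Cyp4a8 averaged 0.56 ± 1.04 in carcinoma, 0.20 ± 0.90 in noncancerous and -0.49 ± 0.66 in control liver, and Cyp4b1 averaged 0.05 ± 1.47, 0.32 ± 1.65 and 0.16 ± 1.32.

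The 4 bile acid synthesis enzymes had lower means in carcinoma than in noncancerous liver (median -0.96) and in control liver (median -0.39), none at an unadjusted p under 0.05. With the running median removed these medians were -0.99 and -0.54. Cyp7a1, the rate-limiting enzyme of the classical pathway, gave -0.03, -3.15, -0.38, -1.84 and 0.06 in carcinomas. It gave -0.87, 1.90, 0.68, 0.05 and 1.77 in noncancerous liver and -2.39 (a bound), -3.36 (a bound), 1.77, 1.08 and -0.49 in controls. Controls 1 and 2 thus lay among the lowest values and control 3 among the highest. The carcinoma minus control difference of -0.39 was -1.86 with the bounds of controls 1 and 2 left out, but 1.35 on the values as deposited and 1.37 with arrays scaled to the same median, so it had no settled direction. Against noncancerous liver the difference was -1.78 (-3.62 to 0.07, adjusted p = 0.391). Its unadjusted p of 0.058 (limma) was 0.0468 with the replicate number as a block, and was also under 0.05 with the pseudocount, with the floor, with array weights and with only these groups in the fit. The unadjusted p was not under 0.05 on the values as deposited or with arrays scaled to the same median. With the running median removed the difference was -1.36 and the unadjusted p 0.132 (limma). Of the 15 fits without 1 sample, 5 gave an unadjusted p under 0.05.

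Cyp8b1, which directs synthesis to cholic acid, gave 0.44, -0.48, -2.53, -1.29 and 0.92 in carcinomas, 1.16, 0.36, -0.96, 0.32 and 0.01 in noncancerous liver and 0.47, -0.49, -1.18, -0.46 and 0.68 in controls. Cyp27a1, the mitochondrial sterol hydroxylase that opens the alternative pathway, gave 1.80, 0.38, -3.20, -2.39 and 0.70 in carcinomas, 0.77, -0.27, 0.36, -1.03 and -0.24 in noncancerous liver and -0.73, -0.89, 0.00, 0.09 and 0.02 in controls. Carcinomas 3 and 4 held the lowest values of the 15 samples for both genes, while the other carcinomas overlapped the other groups. The carcinoma minus noncancerous difference was -0.77 (-2.07 to 0.54) for Cyp8b1 and -0.46 (-2.04 to 1.12) for Cyp27a1. Cyp7b1, the oxysterol hydroxylase of the alternative pathway, gave -1.90, 0.31, 0.51, -0.16 and -2.63 in carcinomas, -0.61, 0.70, 0.83, -0.90 and 1.86 in noncancerous liver and -0.95, 0.02, -0.75, 0.68 and 1.22 in controls. Its lowest values were those of carcinomas 1 and 5, not 3 and 4.

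Cyp51, the demethylase of cholesterol synthesis, gave -1.27, -0.83, -3.58, -0.42 and 0.44 in carcinomas, -2.46 (a bound), 1.16, -0.48, 1.22 and 1.57 in noncancerous liver and 1.45, -3.36 (a bound), 0.23, 0.00 and 1.27 in controls. The differences were -1.33 and -1.05. Leaving out the bounds, which takes away the lowest noncancerous and the lowest control value, gave -2.00 and -1.87. Without carcinoma 3 they were -0.72 and -0.43, and on the values as deposited -0.34 and -0.27. The steroid hormone enzymes did not share this order. Cyp17a1, which leads to androgens, gave 1.23, 0.08, -0.01, -1.61 and -0.67 in carcinomas, 0.88, 1.72, 0.86, 1.01 and -0.59 in noncancerous liver and -0.82, 0.41, -0.67, -0.20 and 0.02 in controls. Its noncancerous minus control difference was 1.03 (-0.09 to 2.15). Cyp11a1, the side-chain cleavage enzyme, and Cyp21a1, the steroid 21-hydroxylase, had higher means in carcinoma than in noncancerous liver, by 0.54 and 1.20, with intervals that included 0. Cyp27b1, which activates vitamin D, differed by -0.08.

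Between carcinoma and control liver, 24 of the 38 genes were lower in carcinoma, with a median of -0.25 beside 0.00 over all probes. Cyp3a2 alone was at an unadjusted p under 0.05, where 3.75% of all probes were lower at that level and 3.65% higher. With the running median removed Cyp3a2, Cyp3a9 and Cyp2c11 were, beside 4.1% of all probes. The median of the 9 steroid and bile acid genes was -0.24, but 0.11 on the values as deposited and 0.13 with arrays scaled to the same median, and it was also above 0 with the floor and without carcinoma 3. The family 4 median of 0.07 was below 0 with the floor and without control 4. The medians of families 1, 2 and 3 in both carcinoma comparisons were below 0 in each of the alternatives run, as were those of the bile acid synthesis genes.

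Between noncancerous and control liver, 28 of the 38 genes were higher in noncancerous liver, with a median of 0.27 beside 0.02 over all probes, and family medians lay between 0.22 and 0.45. The medians of families 1, 2, 3 and 4 were below 0 with the running median removed. The family 3 median was also below 0 on the values as deposited, with arrays scaled to the same median and without noncancerous 5, that of family 1 without control 2, and that of the steroid and bile acid genes without noncancerous 5. Only Cyp2g1 was higher at an unadjusted p under 0.05, beside 4.02% of all probes, and none was lower, beside 5.62%. With the running median removed the P450 median was -0.11 and 15 genes were higher, so the direction of the group depended on that step. Cyp2c11 was then the only gene at an unadjusted p under 0.05, lower in noncancerous liver, as were 1.84% of all probes.

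Genes that serve or control the P450 enzymes were read beside them. The lists were assembled from general knowledge with earlier results of these data known. Of 23 measured regulators, 15 had higher means in carcinoma than in noncancerous liver (median 0.35, or 0.59 with the running median removed). At an unadjusted p under 0.05, 4 were higher and 0 lower, beside 6.95% and 6.28% of all probes. Against control liver, 16 of the 23 had higher means in carcinoma (median 0.49, or 0.43 with the running median removed). There 1 was higher and 0 lower at that level, beside 3.65% and 3.75% of all probes. Between noncancerous and control liver, 11 of the 23 had higher means in noncancerous liver (median -0.09, or -0.18 with the running median removed). Nr0b2, the nuclear receptor that represses bile acid synthesis, averaged 0.90 in carcinoma and -1.36 in noncancerous liver, a difference of 2.26 (0.93 to 3.59, adjusted p = 0.224). Hnf4a, a hepatocyte transcription factor that drives many P450 genes, averaged 0.68 in carcinoma and -0.86 in noncancerous liver, a difference of 1.54 (0.53 to 2.55, adjusted p = 0.234). Means of Nr0b2 and Hnf4a in control liver are not given here, so these differences do not tell which group departs from control. Of the 7 measured genes of haem supply and breakdown, 5 had higher means in carcinoma than in noncancerous liver (median 0.23) and 3 than in control liver (median -0.38). These medians were -0.03 and -0.19 with the running median removed. In each of these carcinoma comparisons 2 of the 7, Alas1 and Blvra, were lower at an unadjusted p under 0.05 and 0 higher, beside 6.28% of all probes lower against noncancerous and 3.75% against control liver. Between noncancerous and control liver (median -0.40), 2 of the 7 were likewise lower at that level and 0 higher, beside 5.62% of all probes lower. Alas1, the rate-limiting enzyme of haem synthesis in the liver, had lower means in carcinoma than in either other group. It averaged -1.39 in carcinoma and 0.83 in control liver, a difference of -2.22 (-3.45 to -0.98, adjusted p = 0.459), and its carcinoma and control values did not overlap, as for 0.825% of all probes.

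Of the 6 electron transfer partners measured, 5 had higher means in carcinoma than in noncancerous liver and 4 than in control liver (medians 0.48 and 0.60, or 0.05 and 0.59 with the running median removed), while the P450 reductase Por differed by -0.72 and -0.36 with intervals that included 0. Growth hormone pathway and sex-dependent genes (18 probes) lay at a median of -0.16 against noncancerous and 0.14 against control liver, and the 16 bile acid and sterol genes outside the P450 family had 0.39 and 0.44. Removal of the running median gave -0.11 and 0.10, and 0.09 and 0.38. Of 16 conjugation enzymes, which act on P450 products, 11 were lower in carcinoma than in noncancerous liver (median -0.62, or -0.36 with the running median removed), 2 of them at an unadjusted p under 0.05, beside 6.28% of all probes. Of the 12 hepatocyte markers measured, 11 had higher means in carcinoma than in control liver (median 0.68, or 0.99 with the running median removed). Of all probes, 50.15% had. At an unadjusted p under 0.05, 1 of the 12 was higher, beside 3.65% of all probes. Noncancerous liver also had higher means than control liver in 8 of the 12 (median 0.60, or 0.19 after that removal). There 2 were higher at that level, beside 4.02% of all probes. Against noncancerous liver, 7 of these markers had higher means in carcinoma (median 0.37, or 0.38 after that removal). Their mean in a sample ranged from -0.63 to 1.36 in carcinomas, from -1.82 to 1.70 in noncancerous liver and from -1.56 to 0.21 in controls. Markers of other cells were few: 10 of stellate cells and myofibroblasts, 5 of lymphocytes, 4 each of endothelium and bile duct and 3 of macrophages, with carcinoma minus noncancerous medians of 0.52, 0.24, -0.51, -0.22 and 0.44, of which that of lymphocytes was -0.29 with the running median removed. Their part in the P450 differences was not tested.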

How the data were processed

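Liver RNA from 5 carcinoma, 5 noncancerous and 5 control samples was measured on 15 arrays, grouped by the sample titles. The authors' deposited values are linear ratios: each probe's median over the 15 arrays is 1 within 1e-06, so the authors had divided each probe by its own median. This leaves no absolute level, detection call or signal over background. Which array, dyes, scanner or software were used is not given in the sources used here. Array means, trimmed by 2% at each end, differed by up to 1.49 times, so the ratios were quantile-normalized and put on the log2 scale. No column was left aside.

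All 15 samples entered 1 limma fit (lmFit and eBayes with trend, limma 3.58.1, R 4.3.3, 12 residual degrees of freedom), with two-sided p-values adjusted by Benjamini-Hochberg over 3757 probes. The fit was also run on simulated data. That outcome is not given here, and nothing above rests on it. Figures were drawn with matplotlib 3.10.9 under Python 3.11.15. Symbols came from the platform annotation (1 symbol for 3440 probes, several for 4, none for 313), and all 38 P450 symbols matched RefSeq's GRCr8 gene table.

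The members, the gene lists and the tests were chosen with earlier results of these data known. Values in every sample are given for P450 genes whose groups did not overlap, those at an unadjusted p under 0.05, and a set of well-known P450 genes. The rest are given by mean or range. Genes outside the family were taken from the lists, at most 5 per comparison by p. Por was named outside that rule, after its values were seen. Alternatives covered scaling, a pseudocount of 0.1, a floor at the 25th percentile, the trend, array weights and the replicate number as a block. They also covered the running median, the mean of a gene's probes, fitting only the compared groups, omitting values at the limit, and omitting samples.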

Additional observations from a re-analysis of the deposited data

Results flagged for a closer look

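In 8 of the 114 sets of 5 samples (38 genes in 3 groups), 1 sample stood far from the other 4, by Dixon's criterion. For normally distributed values, chance meets it in about 5% of such sets. The share over all probes was not counted, so whether 8 of 114 is usual on this array is not known. Carcinoma 5 accounted for 3 of them. It gave 2.78 for Cyp2e1, against -1.27 to -0.53 in the other carcinomas. It gave 2.61 for Cyp4b1, against -1.08 to -0.24, and -4.07 for Cyp4a1, against -0.48 to 0.04. The same sample was thus the highest carcinoma for a pair of genes and the lowest for a gene of the same family, Cyp4a1, next to Cyp4b1 on the chromosome. Carcinoma 2 gave 2.61 for Cyp2c7, against -0.92 to -0.14 in the other carcinomas.

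Noncancerous 3 gave 2.46 for Cyp2g1, against 0.07 to 0.62 in the other noncancerous samples, and noncancerous 1 gave -1.73 for Cyp2j4, against 0.11 to 0.83. In the last pair the outlying value is only a bound at the lowest deposited ratio. These were -2.46 for Cyp2c6v1 in noncancerous 1, against 1.03 to 2.13, and -3.36 for Cyp1a1 in control 2, against 0.12 to 1.32. Of all probes, 10 were at that limit in both noncancerous 1 and control 2, and 3 of the 10 were P450 genes (Cyp1a1, Cyp2c6v1 and Cyp51). The cause was not tested.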

How the results depend on the processing

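No probe passed the adjusted threshold under the alternatives with all samples, and leaving out 1 sample gave between 0 and 2 probes for carcinoma minus noncancerous (2 without noncancerous 5) and 0 for the other comparisons. The count of P450 genes at an unadjusted p under 0.05 in carcinoma minus noncancerous, 5, was 3 as deposited and with arrays scaled to the same median, 2 with the running median removed, 11 with array weights and 9 without control 1 and noncancerous 1. The carcinoma minus control count, 1, was 3 as deposited and with the running median removed, 2 under scaling to the same median, the floor, array weights and without control 1 and noncancerous 1, and 5 with values at the limit left out, an alternative chosen after seeing the data. The noncancerous minus control count, 1, was 2 with the floor, array weights and without control 1 and noncancerous 1. Leaving out 1 sample gave 3 to 9, 1 to 4 and 0 to 3 P450 genes, the 9 without noncancerous 1, the 4 without control 2, and the 0 without noncancerous 3. The P450 median in carcinoma minus noncancerous, -0.70, was -0.31 with the running median removed, and that in noncancerous minus control, 0.27, was -0.11. Leaving out 1 sample gave medians of -0.81 to -0.60, -0.53 to -0.10 (lowest without carcinoma 1) and 0.08 to 0.42 (lowest without noncancerous 5).

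Cyp3a2 and Cyp1b1 kept an unadjusted p under 0.05 in carcinoma minus noncancerous in all 12 alternatives and all 15 fits without 1 sample. Of the 12, the mean of a gene's probes could not change a P450 difference, as each gene had 1 probe. Leaving out values at the limit was chosen after seeing the data. Cyp1a1 and Cyp2c6v1 lost an unadjusted p under 0.05 as deposited, with the median scaling and with the running median removed, and kept it in 8 of 15 fits without 1 sample. Cyp3a9 lost it with the running median removed, without noncancerous 5 and without carcinoma 5, and Cyp2g1 in noncancerous minus control with the running median removed and without noncancerous 3. Cyp3a2 in carcinoma minus control lost it with the floor (-1.47). The cause was not tested. Scaling to the same median moved the median of all probes by up to 0.15, and turned the split of carcinoma minus control probes at an unadjusted p under 0.05, 137 higher and 141 lower, into 180 and 112. Deviations of same-numbered samples correlated between -0.34 and 0.39, above 0 in all 3 comparisons only for number 1 (0.39, 0.19 and 0.32), and not every pair was over 0.1. Such correlations cannot show whether same-numbered samples share an animal, which the labels leave unsaid. The samples were treated as unpaired. The samples numbered 1 also held the most probes at the limit in each group (33 in carcinoma, 209 in noncancerous and 229 in control liver). With the replicate number as a block the carcinoma minus control count was 2 and the others were 6, with Cyp7a1 added, and 1. Ratios give no signal over background, and the number of arrays limits the precision.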
